A study of Mus musculus with 30 samples.

Results

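The comparison described here was between the livers of 5 PPARα-null (Null) mice given perfluorooctane sulfonate (PFOS) at 3 mg/kg and those of 5 Null mice given 0 mg/kg, across all genes measured. These 10 arrays, chosen by their labels, came from a series of 30. The Null mice were male 129S4/SvJae-Pparatm1Gonz/J animals of 6 to 9 months, which lack the nuclear receptor PPARα in every tissue, in controls as well as treated mice. Treated mice received the potassium salt of PFOS by gavage on 7 consecutive days, and controls received the vehicle, 0.5% Tween 20. Further groups of 5 were Null mice at 10 mg/kg, and wild-type (WT) 129S1/SvlmJ males of the same ages at 3, 10 and 0 mg/kg. RNA of the left liver lobe of 1 mouse was hybridized to each Affymetrix mouse genome array. Animals were housed 5 per cage, and how the cages map to the dose groups was not given in the sources used here, so that cage and dose cannot be told apart.

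PFOS is a persistent fluorinated surfactant that binds and activates PPARα, the receptor that drives fatty acid oxidation and peroxisome proliferation in rodent liver. Livers without PPARα keep other receptors that sense foreign compounds, such as the constitutive androstane receptor (CAR), which switches on cytochrome P450 enzymes of the Cyp2b and Cyp2c families. Cholesterol synthesis is under a separate control: the transcription factor SREBP2 is released when sterols in the endoplasmic reticulum run low, and it acts on the genes of nearly the whole pathway, together with the CCAAT-binding factor NF-Y.

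Expression values were log2 intensities, so that a difference of 1 is a doubling of signal. Of 12156 genes tested, 626 (5.15%) were called at an adjusted p under 0.05 (limma, Benjamini-Hochberg): 245 (2.02%) were higher and 381 (3.13%) lower in Null mice at 3 mg/kg than in Null controls. The 5 treated values lay above all 5 control values for 535 genes (4.4%), called or not, and below them for 651 genes (5.36%). Most changes were small. The median absolute change was 0.51 among genes called higher, 0.40 among those called lower and 0.11 over all genes, and 41 called genes (32 higher, 9 lower) changed at least 2-fold. Genes called lower had a median control level of 9.87, against 8.11 for those called higher and 7.41 for all genes. The p-values set the change against the spread between individual mice, 5 per group. That spread was estimated within the dose groups of all 15 Null arrays, 10 mg/kg included, and moderated across genes by limma.

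The number of calls depended on single arrays. Leaving out 1 of the 10 arrays in turn gave 258 calls (without Null 0 mg/kg replicate 4) to 689 (without Null 3 mg/kg replicate 3). Null 10 mg/kg replicate 1 enters the fit of this comparison only through the estimate of spread. It stood apart from the other Null arrays. Its score on the first principal component was 63.9, against -18 to 15.8 for the rest. Without this array 1066 genes were called, 625 of them among the 626. Hepatocyte markers were strong in every array (mean of the 10 tested, 13.62 to 13.67 in treated mice and 13.63 to 13.66 in controls) and none was called. Ppara itself read 8.43 to 9.66 in all Null arrays, against 10.06 to 10.96 in the WT arrays other than 2 controls; whether its probe set lies inside the deleted part was not checked. Replicates 4 and 5 labelled WT 0 mg/kg went against their label: they read 8.53 and 8.63 for Ppara, against 10.55 to 10.66 in the other 3 WT controls, and 12.55 and 12.99 for Cyp2b10, against 7.87 to 8.30. They do not enter the Null comparison, but values that set Null against WT are given with and without them.

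For the cholesterol and respiratory chain genes described further on, stretches of the promoters, from 250 bases before to 50 after the start of transcription, are shown to set the sequence beside the values. The sequences are from RefSeq on build GRCm38.p6, written 5′ to 3′ on the strand of the gene. They are the 5 cholesterol genes with the largest called changes that had a window. Capitals mark the CCAAT box (CCAAT or its complement ATTGG) and, in Hmgcs1, the sterol response element TCACCCCAC bound by SREBP2.
Hmgcs1 promoter (chr13:119690101-119690400, plus strand): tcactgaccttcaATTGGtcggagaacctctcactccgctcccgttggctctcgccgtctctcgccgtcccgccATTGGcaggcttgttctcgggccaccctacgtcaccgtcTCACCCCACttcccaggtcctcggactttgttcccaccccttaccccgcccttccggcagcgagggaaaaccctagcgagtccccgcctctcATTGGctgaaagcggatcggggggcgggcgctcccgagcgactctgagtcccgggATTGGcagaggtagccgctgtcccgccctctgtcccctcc
Cyp51 promoter (chr5:4104648-4104947, minus strand): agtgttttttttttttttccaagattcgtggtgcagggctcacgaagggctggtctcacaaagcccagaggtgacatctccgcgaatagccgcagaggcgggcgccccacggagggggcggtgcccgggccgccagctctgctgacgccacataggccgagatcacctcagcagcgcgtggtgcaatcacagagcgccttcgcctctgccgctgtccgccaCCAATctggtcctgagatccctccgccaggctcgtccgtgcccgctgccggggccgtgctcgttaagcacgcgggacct
Mvd promoter (chr8:122443373-122443672, minus strand): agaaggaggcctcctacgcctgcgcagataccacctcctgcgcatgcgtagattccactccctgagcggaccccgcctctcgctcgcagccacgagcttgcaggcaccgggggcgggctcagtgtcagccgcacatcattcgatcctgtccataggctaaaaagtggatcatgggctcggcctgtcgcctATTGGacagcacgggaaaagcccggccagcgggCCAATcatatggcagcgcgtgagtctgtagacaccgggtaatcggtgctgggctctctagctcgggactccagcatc
Idi1 promoter (chr13:8885356-8885655, plus strand): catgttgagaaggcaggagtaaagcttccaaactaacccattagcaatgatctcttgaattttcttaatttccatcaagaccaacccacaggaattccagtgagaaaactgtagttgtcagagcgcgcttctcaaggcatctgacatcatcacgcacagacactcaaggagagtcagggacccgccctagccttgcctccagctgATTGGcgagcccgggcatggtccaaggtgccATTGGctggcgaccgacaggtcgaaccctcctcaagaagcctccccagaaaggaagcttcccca
Msmo1 promoter (chr8:64733529-64733828, minus strand): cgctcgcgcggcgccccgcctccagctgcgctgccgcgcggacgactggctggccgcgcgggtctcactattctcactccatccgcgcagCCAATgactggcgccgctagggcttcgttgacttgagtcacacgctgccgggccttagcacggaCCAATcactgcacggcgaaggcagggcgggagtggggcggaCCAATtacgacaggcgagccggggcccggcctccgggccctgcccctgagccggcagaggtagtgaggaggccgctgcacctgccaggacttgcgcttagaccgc
A CCAAT box on either strand was present in the windows of all 15 tested cholesterol synthesis genes that had one, against 41.06% of 27025 genes with a window and 42.24% of the 9811 tested genes with one. The box was not particular to this list. It was in 13 of 16 circadian clock genes (81.2%), 20 of 32 CAR targets (62.5%) and 16 of 31 genes of respiratory complexes II to V (51.6%). Shares were lower in complex I (26.7%) and in cytosolic ribosomal proteins (28.9%). The exact letters TCACCCCAC were found in Hmgcs1 alone (6.7%, against 0.61% of all genes and 0.72% of tested genes with a window). A match is a description of the letters and not a measured binding site.

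In the ATP synthase genes below, capitals mark the core of the site of the nuclear respiratory factor NRF1, GCATGCGC, on either strand. They are the 3 called members with the smallest p whose window holds it.
Atp5l promoter (chr9:44920693-44920992, minus strand): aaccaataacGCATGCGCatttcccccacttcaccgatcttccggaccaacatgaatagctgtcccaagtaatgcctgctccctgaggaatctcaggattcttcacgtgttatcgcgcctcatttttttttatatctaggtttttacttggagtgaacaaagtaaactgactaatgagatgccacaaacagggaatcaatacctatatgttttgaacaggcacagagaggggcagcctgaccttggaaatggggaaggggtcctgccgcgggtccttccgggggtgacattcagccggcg
Atp5g2 promoter (chr15:102670998-102671297, minus strand): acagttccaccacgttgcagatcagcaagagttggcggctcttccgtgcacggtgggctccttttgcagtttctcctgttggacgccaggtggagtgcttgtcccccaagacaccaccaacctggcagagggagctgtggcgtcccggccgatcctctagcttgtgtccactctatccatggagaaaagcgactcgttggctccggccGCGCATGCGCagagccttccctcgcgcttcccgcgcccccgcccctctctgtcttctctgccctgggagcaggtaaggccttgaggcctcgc
Atp5k promoter (chr5:108434350-108434649, minus strand): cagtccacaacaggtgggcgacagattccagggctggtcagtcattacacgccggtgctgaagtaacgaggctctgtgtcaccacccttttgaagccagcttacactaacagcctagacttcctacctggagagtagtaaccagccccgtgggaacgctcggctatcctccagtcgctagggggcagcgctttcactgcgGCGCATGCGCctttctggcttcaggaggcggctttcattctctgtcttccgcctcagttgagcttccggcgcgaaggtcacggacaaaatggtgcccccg
In Atp5g2 and Atp5k the core is read on both strands within 1 palindrome, so that 2 overlapping matches are marked as a single run. The core was present in 8 of 31 genes of complexes II to V with a window (25.8%: Atp5g2, Atp5k, Atp5l, Cox6a1, Cycs, Sdhb, Uqcr11 and Uqcrc1), in 2 of 30 genes of complex I (6.7%) and in 3.05% of all genes (5.66% of tested genes).

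The largest rises were in enzymes that clear foreign compounds. Cyp2b10, the classical CAR-inducible P450 of mouse liver, had 11.67, 11.70, 12.66, 10.44 and 11.83 in the Null mice at 3 mg/kg, against 8.63, 8.40, 8.05, 9.23 and 6.76 in those at 0 mg/kg. Every treated mouse lay above every control, by 10.9-fold on average (log2 change 3.44 ± 0.42 SE, adjusted p = 0.000812). Cyp2c55, another P450 inducible through CAR, had 10.02, 10.15, 11.32, 8.73 and 10.30 in the Null mice at 3 mg/kg, against 6.81, 6.72, 6.60, 7.22 and 6.17 in those at 0 mg/kg. Groups did not overlap here either (log2 change 3.40 ± 0.56 SE, adjusted p = 0.00456). In both genes replicate 4 was the lowest of the treated mice and the highest of the controls.

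**Figure D1:**
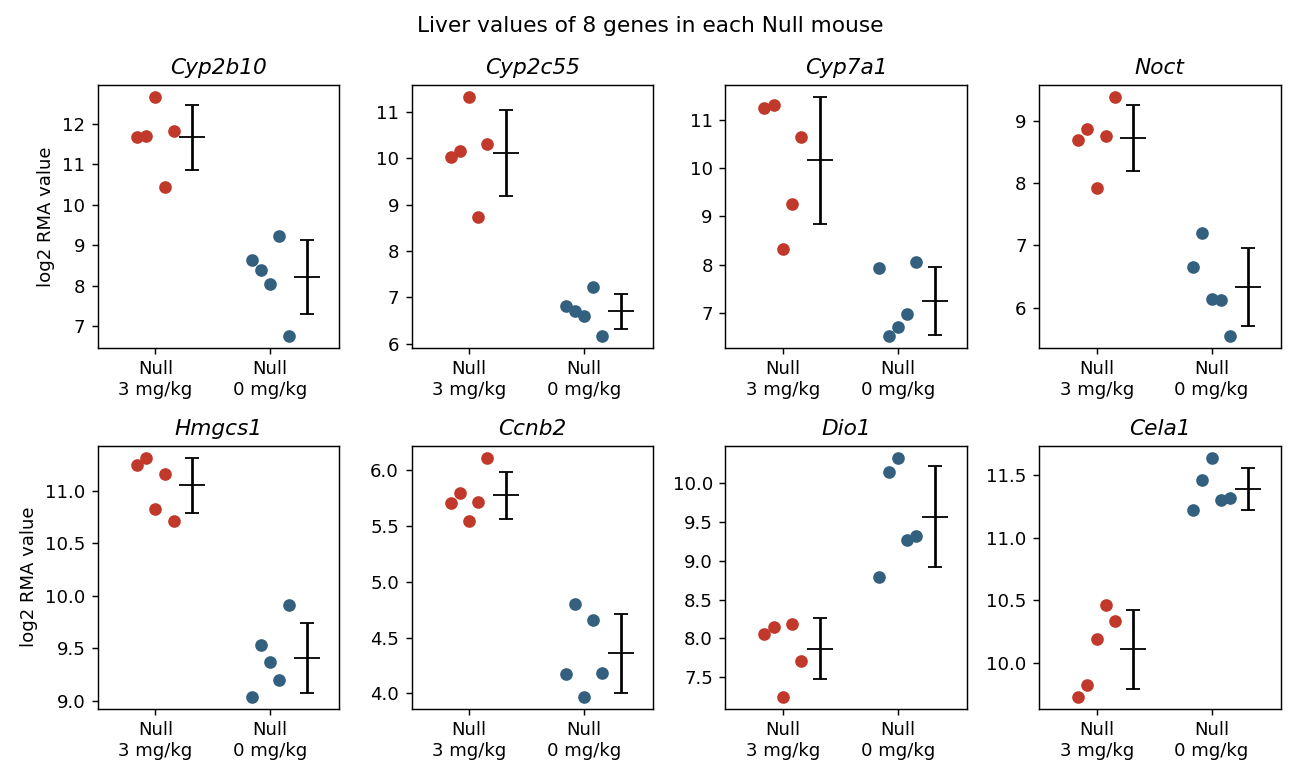
Log2 RMA values (vertical axes) of 8 genes in each of the 5 Null mice at 3 mg/kg (left, red) and the 5 at 0 mg/kg (right, blue), with the group mean and SD as a bar beside the points. Treated and control mice do not overlap in any of the 8 panels, which hold 6 rises and 2 falls; the axes differ between panels and do not start at 0.

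Of the 34 CAR target genes tested, 10 were called higher and none lower, 33 had a positive change and the median was 0.38, against 0.002 over all genes. The count was 5 without Null 0 mg/kg replicate 4 and 15 without Null 3 mg/kg replicate 4. Cyp3a13, a P450 of the Cyp3a family, rose with little spread (11.91, 12.13, 12.22, 12.29 and 12.02 in the Null mice at 3 mg/kg, against 11.19, 11.62, 11.22, 11.28 and 11.23 in those at 0 mg/kg; log2 change 0.81 ± 0.12 SE, adjusted p = 0.0024). Ces1g, a carboxylesterase that hydrolyses esters and lipids, rose 3.15-fold (log2 change 1.66 ± 0.35 SE, adjusted p = 0.015), with values of 8.58 to 10.07 in treated mice and 7.19 to 8.46 in controls. Alas1, which makes the first intermediate of heme and so supplies the P450s, rose 2.29-fold (log2 change 1.19 ± 0.25 SE, adjusted p = 0.0146), and lost its call without Null 0 mg/kg replicate 4 (adjusted p = 0.0502). The export pumps Abcc2 and Abcc3, which move conjugated bile pigments and drugs out of the hepatocyte, rose by 0.45 ± 0.08 and 0.54 ± 0.12. Cyp2c50, Ugt2b34 and Aldh1a7 were called at smaller changes of 0.43, 0.52 and 0.33. Of the 10 fits that left out 1 array, Abcc3, Cyp2c50, Ugt2b34 and Aldh1a7 lost their calls in 6, 4, 8 and 9 (adjusted p up to 0.0638, 0.0625, 0.0828 and 0.11), and Abcc2 in none. By contrast Cyp3a11, the main Cyp3a enzyme of mouse liver, changed by 0.10 ± 0.06 (adjusted p = 0.415), at values of 13.66 to 13.87 in treated mice and 13.59 to 13.73 in controls, near the top of the array's range.

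Other lists of foreign compound metabolism had few calls outside these genes. Of 35 P450s 5 were higher, the fifth being Cyp2r1, a vitamin D 25-hydroxylase (0.44 ± 0.10), and of 11 carboxylesterases 2 were higher, Ces1g and Ces1d (0.94 ± 0.24). Cyp2r1 and Ces1d lost their calls in 6 and 9 of the fits without 1 array (adjusted p up to 0.063 and 0.104). Among 39 conjugating enzymes Ugt2b34 was higher and Gstp3, a glutathione transferase, was lower (log2 change -0.76 ± 0.13 SE, adjusted p = 0.00563). None of the 21 targets of NRF2, the sensor of oxidative and electrophilic stress, was called (median 0.08), and Nfe2l2, which encodes NRF2, changed by 0.10 ± 0.11 (adjusted p = 0.676). Alas1 was the sole call among 13 genes of heme synthesis and breakdown. Nor was any of 29 liver nuclear receptors called (median 0.02).

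Cholesterol synthesis moved almost as a whole. Of 18 enzymes tested 16 were higher and none lower, with a median change of 0.87, and in those 16 all treated mice lay above all controls. The calls numbered 15 or 16 without any single array of the 10, and the median kept between 0.83 and 0.95 over the alternatives run. Hmgcs1, which makes HMG-CoA at the entry of the pathway, had 11.24, 11.31, 10.83, 11.16 and 10.71 in the Null mice at 3 mg/kg, against 9.04, 9.53, 9.37, 9.20 and 9.91 in those at 0 mg/kg, a 3.11-fold rise (log2 change 1.64 ± 0.26 SE, adjusted p = 0.00389). The lanosterol demethylase Cyp51 had 8.55, 8.75, 8.47, 8.70 and 8.37 in the Null mice at 3 mg/kg, against 6.91, 7.08, 6.90, 6.86 and 7.20 in those at 0 mg/kg (log2 change 1.58 ± 0.21 SE, adjusted p = 0.00153). The smallest p in the list was that of Nsdhl, a sterol dehydrogenase of the demethylation steps, at 11.69 ± 0.08 in the Null mice at 3 mg/kg and 10.86 ± 0.12 in those at 0 mg/kg (SD, n = 5 each; log2 change 0.83 ± 0.08 SE, adjusted p = 0.000146). In these 3 genes the group means differed by more than the SD of either group.

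The mevalonate steps rose at both ends: Mvd, the decarboxylase, by 1.22 ± 0.25, Idi1, the isomerase, by 1.14 ± 0.27, Mvk and Pmvk, the kinases, by 0.65 ± 0.12 and 0.66 ± 0.10, and Fdps, which makes farnesyl diphosphate, by 0.88 ± 0.11. At the committed sterol steps Fdft1 (squalene synthase) rose by 1.00 ± 0.16, Sqle (squalene epoxidase) by 1.17 ± 0.22 and Lss (lanosterol synthase) by 0.94 ± 0.18. Among the late steps Msmo1 rose by 1.03 ± 0.18, Hsd17b7 by 0.86 ± 0.15, Dhcr7 by 0.80 ± 0.13, Sc5d by 0.59 ± 0.08 and Tm7sf2 by 0.44 ± 0.09. Idi1 lost its call when any 1 of 5 arrays was left out (adjusted p up to 0.0777, without Null 3 mg/kg replicate 2). The 2 members not called were Ebp, a sterol isomerase (0.17 ± 0.08, adjusted p = 0.316), and Ggps1, which branches off to geranylgeranyl diphosphate (-0.07 ± 0.11, adjusted p = 0.797).

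**Figure D2:**
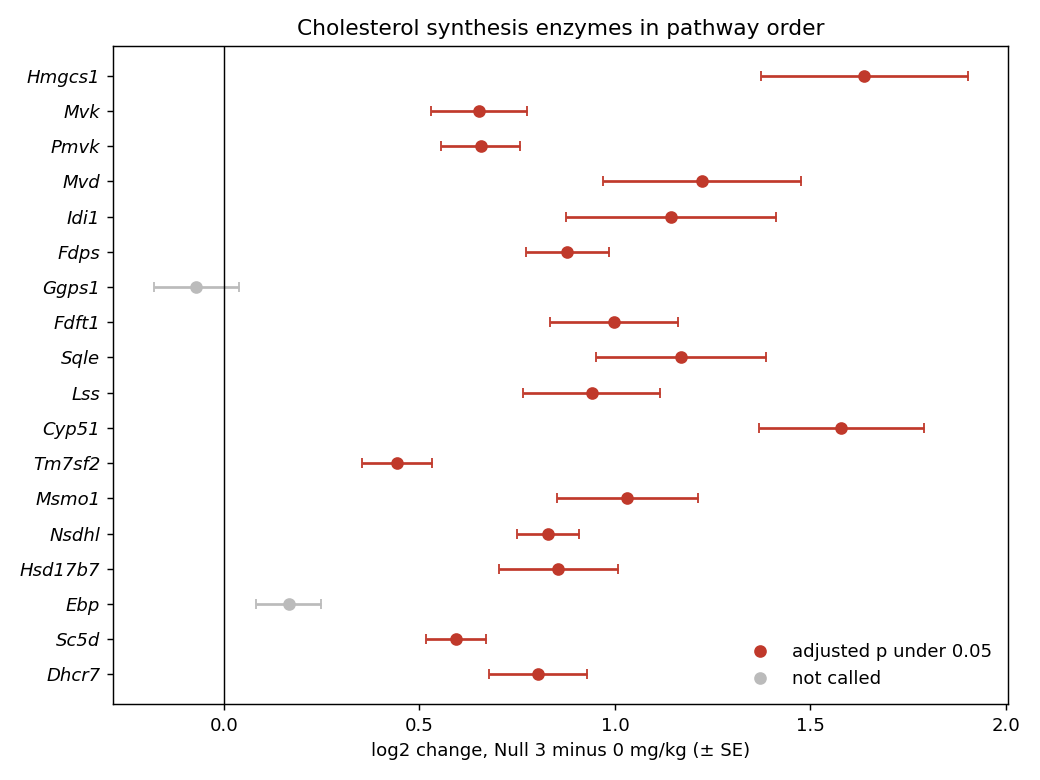
Log2 change, Null 3 minus 0 mg/kg (horizontal axis, ± SE, n = 5 per group), of the 18 cholesterol synthesis enzymes tested, in pathway order from top to bottom, with Ggps1 as a side branch. The 16 called enzymes (red) lie between 0.44 and 1.64, while Ebp and Ggps1 (grey) were not called.

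Of 12 tested genes that SREBP2 is known to act on outside the pathway, 3 were higher (2 or 3 without any single array of the 10, and 6 with the compared groups alone): Tmem97, a sterol-binding membrane protein (0.52 ± 0.09), Fads2, a fatty acid desaturase (0.54 ± 0.10), and Stard4, a carrier of cholesterol within the cell (0.60 ± 0.13, a call lost in 2 of the 10 fits without 1 array). Srebf2, which encodes SREBP2, had 8.43, 8.42, 8.33, 8.65 and 8.34 in the Null mice at 3 mg/kg, against 8.0, 8.10, 8.23, 8.11 and 8.27 in those at 0 mg/kg, and although no value overlapped the gene was not called (log2 change 0.29 ± 0.11 SE, adjusted p = 0.144). Insig1, which holds SREBP2 back when sterols are plentiful, changed by 0.30 ± 0.11 (adjusted p = 0.136). Among 25 genes of fatty acid and triglyceride synthesis 2 were higher, Acss2, which makes acetyl-CoA from acetate (0.87 ± 0.16), and Thrsp, a lipogenic factor (1.19 ± 0.26). Acss2 was called in all 10 fits without 1 array, and Thrsp lost its call in 4.

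Cyp7a1, the rate-limiting enzyme that turns cholesterol into bile acids, had 11.26, 11.32, 8.32, 9.27 and 10.65 in the Null mice at 3 mg/kg, against 7.93, 6.52, 6.71, 6.98 and 8.06 in those at 0 mg/kg. The mean rise was 7.59-fold and the groups did not overlap, but the treated mice spread over 3 log2 units (log2 change 2.92 ± 0.53 SE, adjusted p = 0.00731). It was the single call among 14 bile acid synthesis genes. Values for other enzymes of this list were 0.19 ± 0.21 for Cyp8b1, 0.08 ± 0.14 for Cyp27a1, -0.52 ± 0.20 for Cyp7b1 and -0.83 ± 0.27 for Cyp39a1, with adjusted p of 0.698, 0.847, 0.171 and 0.0964. Of 17 bile acid and anion transporters, Abcc2 and Abcc3 were higher and Abcg8, part of the pump that sends sterols into bile, was lower (-0.44 ± 0.09, adjusted p = 0.0159; lost in 2 of the 10 fits without 1 array).

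Subunits of the mitochondrial respiratory chain were called lower in most cases, by small amounts. Of 33 subunits of complex I, which passes electrons from NADH to ubiquinone, 24 were called lower and none higher, 32 had a negative change, and the median was -0.39. Of 39 subunits of complexes II to V and cytochrome c, 21 were lower, 38 were negative, and the median was -0.28. All treated values lay below all control values in 27 and 28 of them. The counts fell to 12 for complex I without Null 0 mg/kg replicate 4 and to 10 for complexes II to V without Null 3 mg/kg replicate 5, with all medians between -0.43 and -0.26.

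Ndufa7, an accessory subunit of complex I, had 9.95, 10.04, 10.10, 9.87 and 9.88 in the Null mice at 3 mg/kg, against 10.29, 10.56, 10.59, 10.58 and 10.50 in those at 0 mg/kg (log2 change -0.54 ± 0.07 SE, adjusted p = 0.00197). Uqcrh, the hinge protein of complex III, had 11.39, 11.40, 11.46, 11.35 and 11.33 in the Null mice at 3 mg/kg, against 11.81, 12.00, 11.87, 11.96 and 11.86 in those at 0 mg/kg (log2 change -0.51 ± 0.06 SE, adjusted p = 0.00105). Atp5k, a small membrane subunit of ATP synthase whose promoter is shown above, had 12.16, 12.10, 12.16, 11.98 and 12.02 in the Null mice at 3 mg/kg, against 12.39, 12.56, 12.56, 12.67 and 12.57 in those at 0 mg/kg (log2 change -0.47 ± 0.09 SE, adjusted p = 0.00883). In each of the 3 the groups stood apart by a fraction of 1 log2 unit. Ndufb6, Ndufb3 and Ndufb11 fell by 0.46, 0.49 and 0.33, Atp5l and Atp5g2 by 0.41 each, Cox7a2, of cytochrome oxidase, by 0.48 and Cycs, cytochrome c, by 0.41. Ndufa5 had the largest fall of complex I (-0.63 ± 0.14, adjusted p = 0.0208), but a treated value of 10.27 overlapped a control value of 10.23, and the call was lost when any 1 of 4 arrays was left out.

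The subunits did not fall alike. After the values were seen, complex I was divided into its catalytic core and its accessory subunits: 2 of 6 core subunits were lower (median -0.26), against 22 of 27 accessory subunits (median -0.41). None of the 4 subunits of complex II was called, and 4 of 9 in complex III, 7 of 10 in complex IV and 9 of 15 in complex V were lower. Ndufs1, the largest core subunit of complex I, changed by 0.01 ± 0.08, Sdha, the flavoprotein of complex II, by -0.00 ± 0.07 and Atp5b, the catalytic β subunit of ATP synthase, by -0.02 ± 0.06. Ppargc1a, a coactivator of mitochondrial genes, changed by -0.08 ± 0.15 (adjusted p = 0.841).

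**Figure D3:**
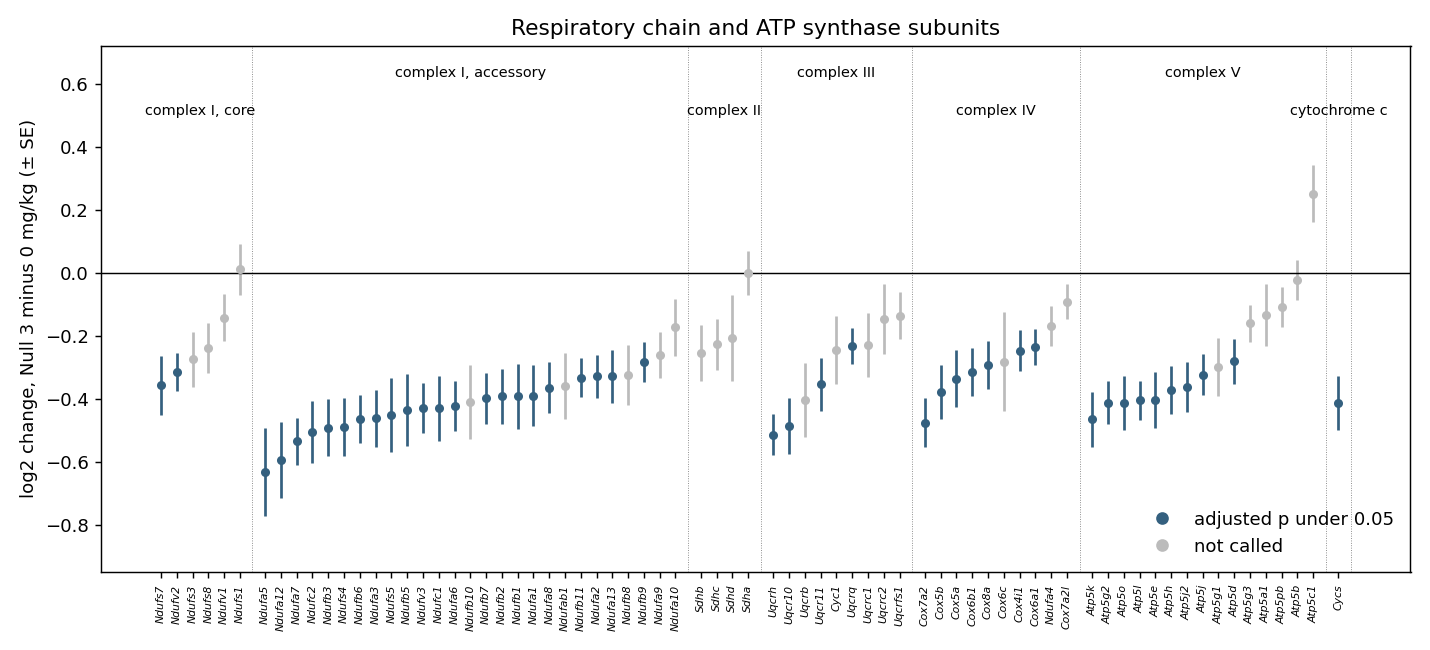
Log2 change, Null 3 minus 0 mg/kg (vertical axis, ± SE, n = 5 per group), of each respiratory chain and ATP synthase subunit tested, grouped by complex and ordered by change within it. Called subunits (blue) are all below 0, and Ndufs1, Sdha and Atp5b (grey) lie at 0.01, -0.00 and -0.02.

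Of 76 ribosomal proteins of the mitochondrion tested 23 were lower, none was higher and 72 were negative (median -0.26). Mrps33 had 9.27, 9.34, 9.42, 9.28 and 9.41 in the Null mice at 3 mg/kg, against 9.59, 9.85, 9.79, 9.68 and 9.71 in those at 0 mg/kg (log2 change -0.38 ± 0.07 SE, adjusted p = 0.00807), and Mrpl23, Mrpl52 and Mrpl22 fell by 0.46, 0.49 and 0.43. Of 43 proteins of the cytosolic ribosome 8 were lower (median -0.19), among them Rps25, Rps14, Rps28 and Fau with changes of -0.38, -0.28, -0.36 and -0.31, while Rplp0, of the stalk, changed by 0.02 ± 0.08. Rps25 was read by a weak probe set (5.96 in treated mice, 6.34 in controls), against a cytosolic list median control level of 12.42. The mitochondrial count was 6 without Null 0 mg/kg replicate 2, and the cytosolic count was 0 without Null 3 mg/kg replicate 2. With the replicate number as a block they were 14 and 4. Of 31 proteasome subunits Psmd13 and Psmb3 were lower (-0.46 each). The Psmd13 probe set read weakly, at 6.28 in treated mice and 6.74 in controls, against a list median control level of 10.88. With the highest-mean probe set of each gene the list had 0 calls. Psmb3 lost its call in 8 of the 10 fits without 1 array, and Psmd13 in none (adjusted p up to 0.047). Rps25, Rps14, Rps28 and Fau lost theirs in 3, 3, 4 and 6. The 3′ minus 5′ difference of the Gapdh control probe sets, a sign of RNA integrity, was 0.095 to 0.159 in treated mice and 0.123 to 0.22 in controls (exact permutation test, two-sided p = 0.0397, 0.119 after adjustment over 3 such measures); that of b-actin was 0.464 to 0.501 in treated mice and 0.383 to 0.487 in controls (exact p = 0.127). The part of RNA integrity in these small falls was not tested.

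**Figure D4:**
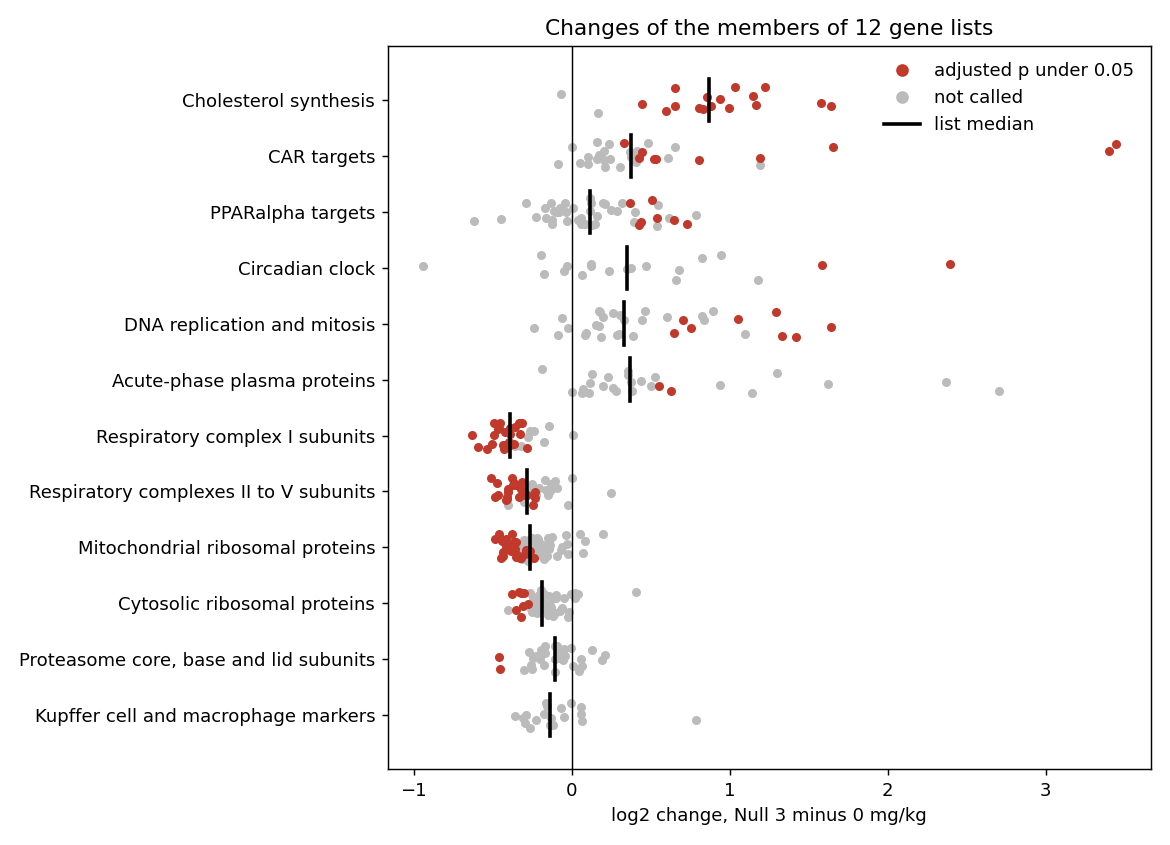
Log2 change, Null 3 minus 0 mg/kg (horizontal axis), of every tested member of 12 gene lists (rows), with called members in red and the list median as a black bar. The cholesterol list lies to the right with a median of 0.87, and the lists of respiratory subunits and ribosomal proteins lie narrowly to the left of 0, with medians of -0.39, -0.28, -0.26 and -0.19.

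Some genes of cell division were higher, from low levels. Of 44 genes of DNA replication and mitosis on the array 33 passed the filter on weak values, which in part shapes the counts that follow. Called higher were 8 and lower none, beside 2.02% of all genes called higher. All treated values lay above all controls in 12, beside 4.4% of all genes, and the median change was 0.33. Ccnb2, a mitotic cyclin, had 5.71, 5.80, 5.55, 5.72 and 6.12 in the Null mice at 3 mg/kg, against 4.18, 4.81, 3.97, 4.66 and 4.18 in those at 0 mg/kg (log2 change 1.42 ± 0.27 SE, adjusted p = 0.00958). Birc5, which guards chromosome segregation, had 5.49, 5.92, 5.87, 5.95 and 5.97 in the Null mice at 3 mg/kg, against 4.91, 4.70, 3.96, 4.74 and 4.25 in those at 0 mg/kg (log2 change 1.33 ± 0.21 SE, adjusted p = 0.00359). All control values of both genes, and 1 treated value of each, sat below the array's median of 5.65, so that these genes passed the filter through arrays other than the Null controls. Mcm6 and Mcm4, of the replicative helicase, rose by 1.64 ± 0.43 and 0.76 ± 0.18, Cdc20 by 1.29 ± 0.31, Top2a by 1.05 ± 0.25, Ccna2 by 0.70 ± 0.19 and Aurka by 0.65 ± 0.15. Control means of Mcm6, Cdc20, Top2a and Aurka were 5.085, 4.77, 4.557 and 4.722, also below 5.65. Members could thus pass the filter through groups where they were high. The count of calls, the lack of falls and the median of the list therefore depend in part on the filter. The list had 2 to 5 calls without any single array of the 10 (2 without Null 3 mg/kg replicate 5): Birc5 and Ccnb2 were called in all 10 of these fits, Mcm6 and Ccna2 in none, and Mcm4, Cdc20, Aurka and Top2a lost their calls in 9, 6, 6 and 4 of them. In bulk tissue more dividing cells and more RNA per dividing cell cannot be told apart. The G1 cyclin Ccnd1 rose by 0.73 ± 0.20 and Cdkn1b, an inhibitor of the cycle, fell by 0.61 (SE 0.15, adjusted p = 0.0329), both with calls that single arrays ended (7 arrays or more). D17H6S56E-5, for which the array annotation gives no role, had 5.97, 6.26, 6.56, 6.79 and 6.84 in the Null mice at 3 mg/kg, against 4.53, 5.15, 3.89, 4.28 and 4.28 in those at 0 mg/kg (log2 change 2.06 ± 0.41 SE, adjusted p = 0.0113). All control values of D17H6S56E-5 were below 5.65 too. Of 22 genes of growth control and p53, Ccnd1 and Sesn1 were higher and Klf6 lower (log2 change -0.66 ± 0.12 SE, adjusted p = 0.0095).

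Noct, a rhythmic phosphatase also known as nocturnin, was among the largest rises, with 8.69, 8.87, 7.93, 8.76 and 9.39 in the Null mice at 3 mg/kg, against 6.66, 7.20, 6.14, 6.12 and 5.54 in those at 0 mg/kg (log2 change 2.40 ± 0.43 SE, adjusted p = 0.00703). Usp2, a rhythmic ubiquitin protease, rose by 1.58 ± 0.41 with overlapping groups, a call lost in 8 of the 10 fits without 1 array. These were the 2 calls among 19 clock genes (median 0.35). Other members were not called: Wee1 1.18 ± 0.34, Ciart 0.94 ± 0.29, Dbp 0.82 ± 0.40, Tef 0.66 ± 0.19 and Arntl -0.94 ± 0.44, with adjusted p of 0.0653, 0.0758, 0.296, 0.0653 and 0.275. The count ran over 1 to 4 without single arrays, and the hour of death was not given in the sources used here. A CACGTG E-box was in the promoter windows of 4 of 16 clock genes (Bhlhe41, Ciart, Per1 and Tef), against 8.09% of all genes and 11.74% of tested genes with a window.

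Without PPARα, 38 of 45 tested targets of the receptor were not called. The other 7 were higher and none was lower, beside 2.02% of all genes called higher. The median change of the list was 0.12, against 0.002 over all genes. The called members carry acyl groups or act on fatty acids: Slc25a20, which shuttles acylcarnitine into mitochondria, had 9.88, 10.00, 9.97, 9.77 and 10.04 in the Null mice at 3 mg/kg, against 9.28, 9.47, 9.25, 9.67 and 9.30 in those at 0 mg/kg (log2 change 0.54 ± 0.12 SE, adjusted p = 0.0214), and Eci2, Acot4, Cd36, Crat and Acadl rose by 0.51, 0.44, 0.65, 0.73 and 0.43. Creb3l3, a liver transcription factor, rose by 0.37 ± 0.07. The list had 2 calls without Null 3 mg/kg replicate 2; Creb3l3 and Acot4 were called in all 10 fits without 1 array, and Crat, Acadl, Cd36, Slc25a20 and Eci2 lost their calls in 9, 9, 8, 4 and 3. Cyp4a14, a fatty acid hydroxylase and the best known PPARα target, had 7.74, 8.06, 7.25, 6.90 and 7.74 in the Null mice at 3 mg/kg, against 5.83, 9.19, 5.78, 12.20 and 5.33 in those at 0 mg/kg, so that 2 controls exceeded every treated mouse (log2 change -0.13 ± 1.04 SE, adjusted p = 0.971). Of 23 genes of mitochondrial β-oxidation and ketogenesis 2 were called, of 36 peroxisomal genes 1 and of 13 acyl-CoA thioesterases 1, all higher. Ppara changed by -0.36 ± 0.15 (adjusted p = 0.203).

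Acute-phase plasma protein genes leaned upward with a wide spread between mice. Of 26 acute-phase genes 25 were positive (median 0.37) but 2 were called, Steap4, a metal reductase (log2 change 0.63 ± 0.14 SE, adjusted p = 0.0227), and Saa4, a constitutive serum amyloid A (log2 change 0.55 ± 0.13 SE, adjusted p = 0.0287). Saa2, an inducible serum amyloid, had 11.63, 11.74, 11.38, 14.17 and 13.79 in the Null mice at 3 mg/kg, against 11.47, 9.91, 8.72, 8.56 and 10.53 in those at 0 mg/kg, and Lcn2, an iron-binding acute-phase protein, had 9.26, 9.48, 9.80, 13.06 and 12.22 in the Null mice at 3 mg/kg, against 8.26, 8.68, 8.06, 7.83 and 9.16 in those at 0 mg/kg. The Lcn2 groups did not overlap. Treated replicates 4 and 5 were far above the other treated mice in both, and neither gene was called (adjusted p = 0.147 and 0.205). Genes of complement and coagulation went both ways: of 44 tested, 12 had a negative change, and the median was 0.09. All treated values lay above all controls in 7 and below them in 5, beside 4.4% and 5.36% of all genes. Pros1 (protein S), C4bp and Hc (complement component 5) were called higher, by 0.62 ± 0.10, 0.48 ± 0.09 and 0.32 ± 0.09, and none was called lower. Over all genes 2.02% were called higher. In the 10 fits that left out 1 array Pros1 and C4bp were called in each, while Hc lost its call in all 10 (adjusted p 0.0665 to 0.117), Saa4 in 6 and Steap4 in 3 (up to 0.0844 and 0.071, without Null 0 mg/kg replicate 4). No interferon response gene was called of 17, nor any of 17 antigen presentation genes.

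The largest fall was that of Dio1, the deiodinase that activates thyroid hormone, which had 8.05, 8.15, 7.25, 8.19 and 7.71 in the Null mice at 3 mg/kg, against 8.79, 10.15, 10.33, 9.27 and 9.32 in those at 0 mg/kg (log2 change -1.70 ± 0.39 SE, adjusted p = 0.0258). All treated mice were below all controls, but the call was lost when any 1 of 6 arrays was left out. Thrsp, the other called gene of 12 in thyroid hormone action, was higher. Cela1, an elastase, had 9.73, 9.82, 10.19, 10.46 and 10.33 in the Null mice at 3 mg/kg, against 11.22, 11.46, 11.64, 11.30 and 11.32 in those at 0 mg/kg (log2 change -1.28 ± 0.17 SE, adjusted p = 0.00175), and it was the only call among 6 tested pancreatic acinar markers. The probe set listed under the small nucleolar RNA Snord104 had 9.23, 9.09, 9.49, 9.28 and 9.30 in the Null mice at 3 mg/kg, against 9.96, 10.52, 10.56, 10.75 and 10.76 in those at 0 mg/kg (log2 change -1.23 ± 0.13 SE, adjusted p = 0.000466). Both Cela1 and Snord104 separated the groups by over 0.4 log2 units and kept their calls without any single array.

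Further named falls included 9030619P08Rik (-1.60 ± 0.25), whose function the annotation does not give, the serpins Serpina12 (-1.24 ± 0.26) and Serpina9 (-1.02 ± 0.22), Depp1 (-1.14 ± 0.30), a gene induced by fasting, Hsd3b2, a steroid dehydrogenase (-0.88 ± 0.19), the kinase Taok3 (-0.84 ± 0.15), Tsc22d1 (-0.81 ± 0.20) and Leap2, which encodes a liver peptide that opposes ghrelin (-0.78 ± 0.12). Their treated and control values did not overlap. Tsc22d1, Depp1, Hsd3b2 and Serpina9 lost their calls in 9, 7, 4 and 3 of the 10 fits that left out 1 array, with an adjusted p of up to 0.0831, 0.116, 0.0566 and 0.0571. In retinoid metabolism Rdh11, a retinol dehydrogenase, rose 2.13-fold (log2 change 1.09 ± 0.16 SE, adjusted p = 0.0024) with values of 9.52 to 10.17 in treated mice and 8.53 to 8.89 in controls. Cyp4a12a, a male-biased P450, was called at 0.53 ± 0.14 (adjusted p = 0.0397), with overlapping groups and a call lost in 8 of the 10 fits without 1 array (adjusted p up to 0.102, without Null 3 mg/kg replicate 2).

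Cell type markers gave few calls. None was called among 19 Kupffer cell (median -0.14), 17 stellate cell, 5 bile duct, 10 lymphocyte, 7 neutrophil, 4 red cell, 5 adipocyte, 3 muscle and kidney, 17 pericentral or 11 periportal genes, and Dnase1l3 (lower) was the single call among 18 endothelial genes. No call was made among genes of the unfolded protein response (29), heat shock (16), the urea cycle and amino acid breakdown (38) or gluconeogenesis and fasting (19). One or 2 genes were called among those of lipid droplets (15), lipoproteins (26), retinoids apart from Rdh11 (24 in all) and the growth hormone axis (23).

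The dose of 10 mg/kg was set directly against 3 mg/kg in the Null arrays, and limma called no gene, with 1300 genes at an unadjusted p under 0.05. If no gene differed, a share of about 0.05 of the 12156 genes tested would lie under that limit. Without the outlying Null 10 mg/kg replicate 1 no gene was called either. With 5 mice per group, a lack of calls does not show that the doses acted alike. The 2 comparisons with 0 mg/kg share the 5 controls, and their values are given side by side. At 3 mg/kg the change of Cyp2b10 was 3.44, beside 4.33 at the higher dose; for Cyp2c55 these were 3.40 and 4.65, and for Cyp7a1 2.92 and 2.19. The cholesterol list had a median of 0.87, beside 0.65 at the higher dose, and the CAR targets one of 0.38, beside 0.59.

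The response to 3 mg/kg in Null mice was also set against that in WT mice. The interaction called 150 genes (1.23%; 29 with a more positive change in Null mice, 121 more negative), and 26 (0.214%) without the 2 doubted WT controls. Cyp2b10 rose by 3.44 in Null mice and by 3.66 in WT mice without the doubted arrays (1.81 with them), an interaction of -0.22 (adjusted p = 0.90), or 1.64 with them (adjusted p = 0.495). Cyp7a1 differed by 3.99 (adjusted p = 0.034), and by 2.96 without the doubted arrays (adjusted p = 0.13). The median change of the cholesterol list was 0.87 in Null mice and 0.43 in WT mice (0.19 with the doubted arrays), and its 2 interaction calls, Sc5d and Lss, became 0. Of complex I, 13 interaction calls became 1. Genes more negative in Null mice both ways included Uqcrh (-0.52 without the doubted arrays, adjusted p = 0.037, and -0.56 with them), Rps14 (-0.39, adjusted p = 0.044, and -0.35) and Psmb3 (-0.81, adjusted p = 0.037, and -0.73), and Cyp4a31 of the fatty acid hydroxylases (-3.13 and -3.16). The PPARα-regulated Acot1 (-2.40) and Ehhadh (-1.22) were called in the interaction when the doubted arrays were left out, and with them the values were -1.09 and -0.85 (adjusted p = 0.534 and 0.13).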

How the data were processed

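Liver RNA of 30 mice was measured on Affymetrix mouse genome arrays. The deposited values are log2 intensities, which the authors summarized, background adjusted and quantile normalized by Robust Multichip Average (RMA Express, ver. 1.0); quantile normalization hides any shift of all genes together and compresses weak values. The array annotation paired 34958 of 45101 probe sets with 1 gene, 932 with several and 9211 with none listed. A probe set was kept when 5 or more of the 30 arrays exceeded 5.65, the overall median (24069 kept), and a gene took its probe set with the smallest moderated F-test p over 4 dose effects, the same in every comparison. limma 3.58.1 (R 4.3.3) was fitted to the 15 Null arrays with dose as a factor, and p was adjusted by Benjamini-Hochberg over all kept probe sets. Signal intensity limits precision, and array counts do not give depth. Sample groups came from the labels.

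Named genes were the 12 largest rises and 12 largest falls among called genes whose groups did not overlap, per list the 4 genes of lowest p, genes that the study names, and Ppara; further members of a list were named after their values were seen. The members, the 50 gene lists and the tests were chosen with earlier results of these data known. Replicate numbers did not pair the samples. The fitting step was tested on simulated data. Alternatives were the filter, the choice of probe set, the scaling, the spread, array weights, the samples fitted, the replicate block, the methods' t-test and leaving out each array. Promoters were matched to RefSeq windows of 300 bases (GRCm38.p6).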

Additional observations from a re-analysis of the deposited data

Results flagged for a closer look

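Among 240 groups of 5 values of the named genes, 17 held 1 mouse far from the others by Dixon's criterion, at which chance gives about 1 in 20 groups. In treated mice the distant values were replicate 4 for Abcc3 (11.20), Cyp2c50 (11.88), Atp5l (11.67), Sdha (11.56), Atp5b (13.36), Nfe2l2 (9.68) and Cyp4a12a (12.47), replicate 5 for Cyp7b1 (12.27), replicate 1 for Birc5 (5.49) and replicate 3 for Mrpl22 (9.98). In controls they were replicate 1 for Mcm4 (5.94), Cox7a2 (11.93), Mrpl23 (10.53) and Mrpl52 (10.15), replicate 5 for Fdft1 (10.41) and Cyp8b1 (11.68), and replicate 2 for Cyp3a13 (11.62).

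For 24 named genes the response to 3 mg/kg differed between Null and WT mice by the interaction in limma (log2, Null minus WT); each value is followed by that without the 2 WT controls that went against their label. It was more positive in Null mice for Cyp7a1 (3.99 and 2.96), D17H6S56E-5 (3.13 and 2.42), Cdc20 (2.38 and 1.68), Top2a (1.99 and 1.36), Ccna2 (1.32 and 0.89), Pros1 (0.97 and 0.80), Lss (0.91 and 0.79), C4bp (0.62 and 0.61), Sc5d (0.58 and 0.46) and Abcc2 (0.51 and 0.37). More negative values were those of Snord104 (-1.49 and -1.08), Ndufa5 (-0.79 and -0.74), Psmb3 (-0.73 and -0.81), Ndufa7 (-0.65 and -0.59), Ndufb3 (-0.61 and -0.55), Cycs (-0.58 and -0.51), Uqcrh (-0.56 and -0.52), Ndufb6 (-0.52 and -0.46), Rps25 (-0.50 and -0.51), Atp5g2 (-0.45 and -0.42), Ndufb11 (-0.41 and -0.36), Fau (-0.41 and -0.39), Rps28 (-0.39 and -0.43) and Rps14 (-0.35 and -0.39). Without those controls, Uqcrh, Rps14 and Psmb3 kept an adjusted p under 0.05 and the other 21 did not.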

How the results depend on the processing

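The 626 genes called at 3 against 0 mg/kg in Null mice became 1890 with array weights (951 higher, 939 lower), 1091 with the compared groups alone (508 higher, 583 lower) and 137 at a change of at least 1.5-fold. Leaving out 1 array at a time gave 258 to 1066. The other alternatives gave 418 to 843 calls: no filter 418, a stricter filter 618, the highest-mean probe set 533, no _x_at or _s_at probe sets 572, trend and robust spread 639, the methods' t-test at 0.0025 659 or 553 after Benjamini-Hochberg, limma at an unadjusted 0.0025 684, and all 30 arrays 843. Other scalings moved the split of 245 higher and 381 lower: 222 higher and 552 lower with arrays shifted to 1 median, and 248 higher and 533 lower with repeated quantile normalization. Same-numbered samples correlated at -0.181 to 0.271 in their deviations from the group means, so the numbers do not pair the mice; with the replicate block 457 genes were called (183 higher, 274 lower). The difference from WT mice, 150 genes, became 56 without a filter, 26 without the 2 doubted WT controls, 132, 100 and 145 with the highest-mean probe set, the compared groups alone and the replicate block, and 21 to 435 without single arrays. At 10 against 3 mg/kg no alternative called a gene. For the named genes, 2871 of the alternative values kept direction and call, 340 kept direction and lost the call, 21 gained it and 0 reversed; 56 of the 96 called named genes kept their call without any 1 of the 10 arrays. The cause of these differences was not tested. Probe sets near background understate folds.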
